A study of Mus musculus with 6 samples.

Results

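The 10 genes described here encode the main enzymes that remove superoxide and peroxides in the mitochondria and cytosol of mouse brain cells. They were chosen by name from the 21958 genes of a table of read counts: the superoxide dismutases Sod1 and Sod2, the peroxiredoxins Prdx1, Prdx2, Prdx3, Prdx5 and Prdx6, the glutathione peroxidases Gpx1 and Gpx4, and catalase (Cat). Sod2, Prdx3 and Prdx5 were taken as the 3 mitochondrial members and Sod1, Prdx1, Prdx2, Prdx6 and Gpx1 as the 5 cytosolic ones. Gpx4, whose single gene gives cytosolic, mitochondrial and nuclear forms, and Cat, an enzyme of peroxisomes, were placed in neither group.

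RNA sequencing was done on synaptoneurosomes, a fraction of brain homogenate enriched in synaptic terminals with their postsynaptic partners, which keep working ribosomes after isolation. They were prepared from the hippocampus and neighboring cortex of male FVB/NJ mice aged 6 to 8 weeks, with the tissue of 6 mice pooled in a preparation. One group of 3 libraries, called NMDA polyribosomes, holds RNA from the polyribosome fractions of a sucrose gradient, where mRNAs carrying several ribosomes sediment. Before lysis these synaptoneurosomes were given a 30 s pulse of 50 µM NMDA and 10 µM glutamate, ligands of the NMDA receptor, then 120 µM APV, an antagonist of that receptor, and were kept for 20 min in all. The other group, unstim. Total, holds 3 libraries of total RNA labelled as unstimulated. By the methods, unstimulated controls stayed on ice with cycloheximide, which blocks translation, while stimulated aliquots were warmed, and the lysis buffer of the polyribosome preparation held cycloheximide too. The methods describe the total RNA both as an aliquot of its own and as a part of the cleared lysate kept before the gradient, so which of these the Total libraries hold is uncertain. The stimulation, its handling and the fraction all differ between the groups, so their effects cannot be told apart.

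Superoxide, a by-product of the respiratory chain and of cytosolic oxidases, is converted to hydrogen peroxide by manganese superoxide dismutase (Sod2) in the mitochondrial matrix and by the copper and zinc enzyme (Sod1) mainly in the cytosol. The peroxide is then reduced to water by peroxiredoxins, most of which are recharged by thioredoxin, by glutathione peroxidases, which use glutathione, or by catalase. All 10 are encoded in the nucleus, so the mitochondrial members are made on cytosolic ribosomes and imported. In brain, peroxiredoxin 6 is known mainly from astrocytes and peroxiredoxin 2 mainly from neurons.

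The coding sequence around the catalytic residue shows how the peroxidase members are related, and which of them depend on the reading of a stop codon as selenocysteine. The windows of 30 bases were taken from Gencode vM21 transcripts on GRCm38, 5′ to 3′, with the codon of the peroxidatic cysteine (TGT or TGC) or of selenocysteine (TGA) in capitals.
Prdx1: tttacttttgtgTGTcccacggagatcatt
Prdx2: ttcacttttgttTGCcccacggagatcatc
Prdx3: ttcacatttgtgTGTcctacagaaattgtt
Prdx5: tttacacctggcTGTtctaagacccacctg
Prdx6: tttaccccagtgTGCaccacagaacttggc
Gpx1: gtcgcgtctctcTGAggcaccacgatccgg
Gpx4: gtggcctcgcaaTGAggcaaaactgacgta
The Prdx1 window lies in exon 3 on the forward strand at chr4:116691811-116691840 and the Prdx2 window in exon 3 on the forward strand at chr8:84970471-84970500. The Prdx6 window lies in exon 2 on the reverse strand at chr1:161247353-161247382. The Prdx3 and Prdx5 windows each cross an intron on the reverse strand of chromosome 19, between 60870112 and 60871421 and between 6907665 and 6908002. Those of the selenoproteins are on the forward strand, in exon 1 of Gpx1 at chr9:108339439-108339468 and in exon 3 of Gpx4 at chr10:80054725-80054754. Cytosolic Prdx1 and Prdx2 shared 26 of the 30 bases, and mitochondrial Prdx3 shared 23 with Prdx1 and 21 with Prdx2. Gpx1 and Gpx4 shared 17.

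The unstim. Total libraries held 3738022, 2907817 and 1044955 counts and the NMDA polyribosome libraries 7361580, 6856562 and 5294482, so the Total group, and its replicate 3 above all, was the shallower. Of the 21958 genes, 12255 passed the filter on low counts and were tested, and all 10 members were among them. Their smallest counts were 24 for Gpx1 and 25 for Prdx3, both in Total replicate 3. Levels below are CPM, counts scaled to a library of 1000000 after TMM normalization. TMM gives each library a scaling factor, on the assumption that most genes do not differ between libraries. Without TMM, the members together had 1033 to 1069 CPM in the Total libraries and 1322 to 1618 CPM in the polyribosome libraries. A log2 fold change is NMDA polyribosomes over unstim. Total, with its standard error (SE) and the adjusted p of edgeR's quasi-likelihood test (Benjamini-Hochberg over all genes tested, called below 0.01). The replicate numbers mark preparations split between the groups, so the same test was also run with the preparation as a block. The blocked p-values rest largely on a spread shared across genes, not on each gene's own spread over the preparations.

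In the test by group alone, 0 of the 10 members passed in either direction, against 0.71% of all genes tested called higher and 2.36% called lower. At an unadjusted p under 0.05, edgeR's quasi-likelihood test found 6 members higher and 0 lower, where 15.4% of all genes were higher and 17.1% lower. DESeq2, with its adjusted p held to 0.01, called 2 members higher, Prdx2 and Prdx6, and 0 lower, against 3.19% and 3.77% of the 9919 genes to which it gave an adjusted p. With the preparation as a block, 6 members rose on NMDA polyribosomes: Prdx1, Prdx2, Prdx5, Prdx6, Sod1 and Cat. The block called 11.8% of all genes higher and 13.2% lower, and 0 members lower. The polyribosome group lay wholly above the Total group for 6 members (Sod2, Prdx1, Prdx2, Prdx5, Prdx6 and Cat), against 17.4% of all genes.

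**Figure D1:**
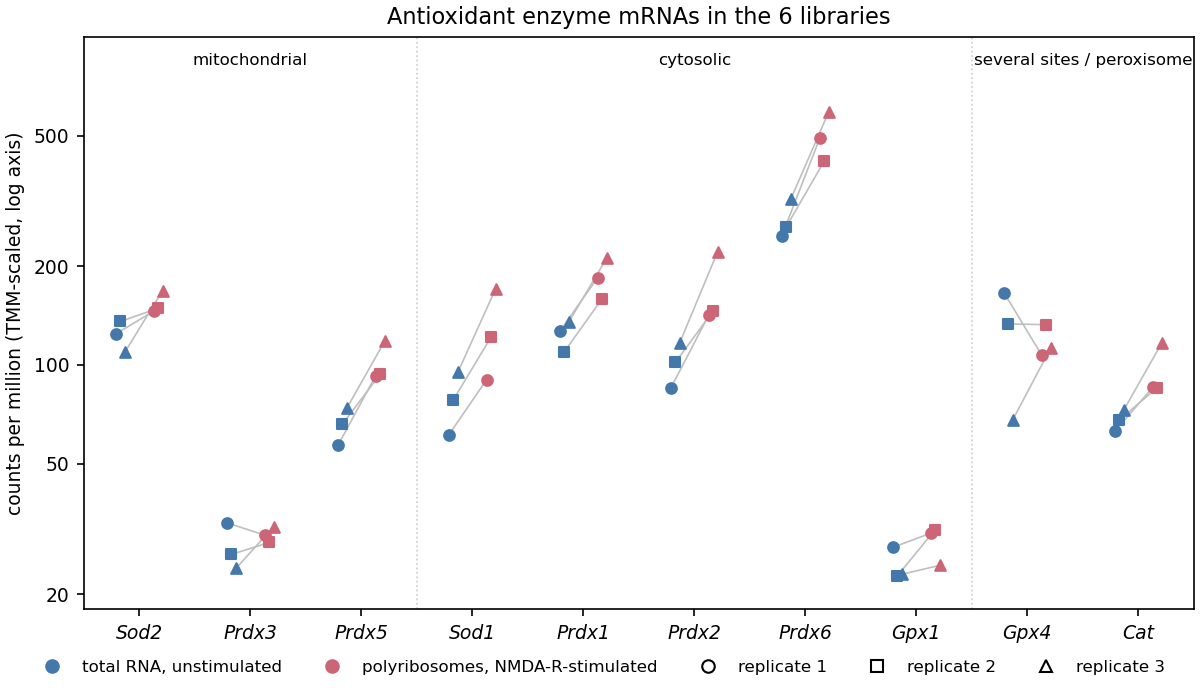
TMM-scaled CPM of the 10 genes in each of the 3 unstim. Total and 3 NMDA polyribosome libraries, on a log axis. Points are libraries, blue for Total and red for polyribosomes, and lines join same-numbered libraries. Prdx6 was the highest in CPM in every library, and the groups overlapped for Prdx3, Sod1, Gpx1 and Gpx4.

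Of the dismutases, mitochondrial Sod2 (ENSMUSG00000006818.4, chr17:13007839-13018119) had 124, 136 and 109 CPM in the Total libraries and 146, 149 and 168 on NMDA polyribosomes. The groups did not overlap, but the means of 154 ± 12.3 and 123 ± 13.2 CPM (SD, n = 3 each) were close. Its log2 fold change was 0.32 (SE 0.16, adjusted p = 0.192 with edgeR), and 0.30 (adjusted p = 0.0481) with the block. Cytosolic Sod1 (ENSMUSG00000022982.9, chr16:90220742-90226322) had 61.3, 78.4 and 94.9 CPM in the Total libraries and 90.2, 122 and 170.5 on polyribosomes. The lowest polyribosome library lay under the highest Total library, although in each preparation the polyribosome library was the higher. Its log2 fold change was 0.73 (SE 0.23, adjusted p = 0.0446 with edgeR), and with the block it rose by 0.67 on the log2 scale (adjusted p = 1.09e-05).

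Among the peroxiredoxins, cytosolic Prdx6 (ENSMUSG00000026701.13, chr1:161240112-161251219), which uses glutathione rather than thioredoxin, had 248, 264 and 320.3 CPM in the Total libraries and 490.0, 417 and 589 on polyribosomes. Every polyribosome library was above every Total library, with a ratio of the means of 1.80 (499 ± 86.2 against 277 ± 38.1 CPM, SD, n = 3 each). The log2 fold change of 0.85 (SE 0.18) was the largest of the 10, with an adjusted p of 0.0107 from edgeR by group alone and 2.81e-08 with the block. Prdx6 supplied 25.0% to 30.8% of all counts on the 10 genes in the Total libraries and 30.6% to 35.0% in the polyribosome libraries.

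Prdx2 (ENSMUSG00000005161.13, chr8:84969587-84974834), a cytosolic enzyme recharged by thioredoxin, had 85.2, 102 and 117 CPM in the Total libraries and 142, 146 and 221 on polyribosomes. Replicate 3 was the highest library of each group, and the groups did not overlap. Prdx2 had a log2 fold change of 0.76 (SE 0.20, adjusted p = 0.0255 with edgeR, 2.49e-06 with the block). Its close relative Prdx1 (ENSMUSG00000028691.10, chr4:116685544-116700822) had 127, 109.8 and 135 CPM in the Total libraries and 185, 159 and 211 on polyribosomes. These groups did not overlap either, and the 3 preparations gave nearly equal log2 ratios of 0.54, 0.53 and 0.64. The log2 fold change of Prdx1 was 0.58 (SE 0.17, adjusted p = 0.036 with edgeR, 0.000132 with the block).

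The mitochondrial peroxiredoxins differed from each other. Prdx5 (ENSMUSG00000024953.14, chr19:6906697-6910106), which is also found in peroxisomes and cytosol, had 56.9, 66.0 and 73.8 CPM in the Total libraries and 92.8, 93.7 and 118 on polyribosomes. All its polyribosome libraries were above all its Total libraries. Its log2 fold change was 0.65 (SE 0.17, adjusted p = 0.0259 with edgeR, 3.88e-05 with the block). Prdx3 (ENSMUSG00000024997.7, chr19:60864051-60874556), the peroxiredoxin restricted to the matrix, had 33.0, 26.5 and 24.0 CPM in the Total libraries and 30.3, 28.8 and 32.1 on polyribosomes. The highest value of Prdx3 was in a Total library, and the pairs went both ways. Its log2 fold change was 0.09 (SE 0.18, adjusted p = 0.775 with edgeR, 0.751 with the block).

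Gpx1 (ENSMUSG00000063856.7, chr9:108338903-108340343), the main glutathione peroxidase of the cytosol, had 27.8, 22.8 and 23.0 CPM in the Total libraries and 30.7, 31.5 and 24.5 on polyribosomes. The groups overlapped, and the log2 fold change was 0.22 (SE 0.19, adjusted p = 0.451 with edgeR, 0.213 with the block). Gpx4 (ENSMUSG00000075706.8, chr10:80047166-80056439), which reduces lipid peroxides within membranes, had 166, 133 and 68.1 CPM in the Total libraries and 107, 133 and 112 on polyribosomes. No other member varied as much within the Total group, whose SD was 49.9 around a mean of 123 CPM. The 3 preparations gave log2 ratios of -0.63, -0.01 and 0.72, and the log2 fold change was -0.10 (SE 0.24, adjusted p = 0.814 with edgeR), or 0.17 without Total replicate 1 and -0.35 without Total replicate 3. Library depth and the summed hemoglobin mRNAs (874, 379 and 198 CPM) were also highest in Total replicate 1 and lowest in Total replicate 3. Both had the same order in the polyribosome libraries (hemoglobin 1142, 326 and 249 CPM), where Gpx4 was lowest in replicate 1. The part of depth and hemoglobin in the spread of Gpx4 was not tested. Gpx4 shared 48.4% of the 100-base stretches of its longest transcript with other genes, processed pseudogenes among them, so its count is uncertain.

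Cat (ENSMUSG00000027187.8, chr2:103453849-103485160), the heme enzyme that splits hydrogen peroxide without a thiol partner, had 62.8, 68.0 and 72.9 CPM in the Total libraries and 85.4, 85.3 and 116 on polyribosomes. The groups did not overlap. Its log2 fold change was 0.50 (SE 0.18, adjusted p = 0.0655 with edgeR), and it rose with the block by 0.46 on the log2 scale (adjusted p = 0.00234).

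**Figure D2:**
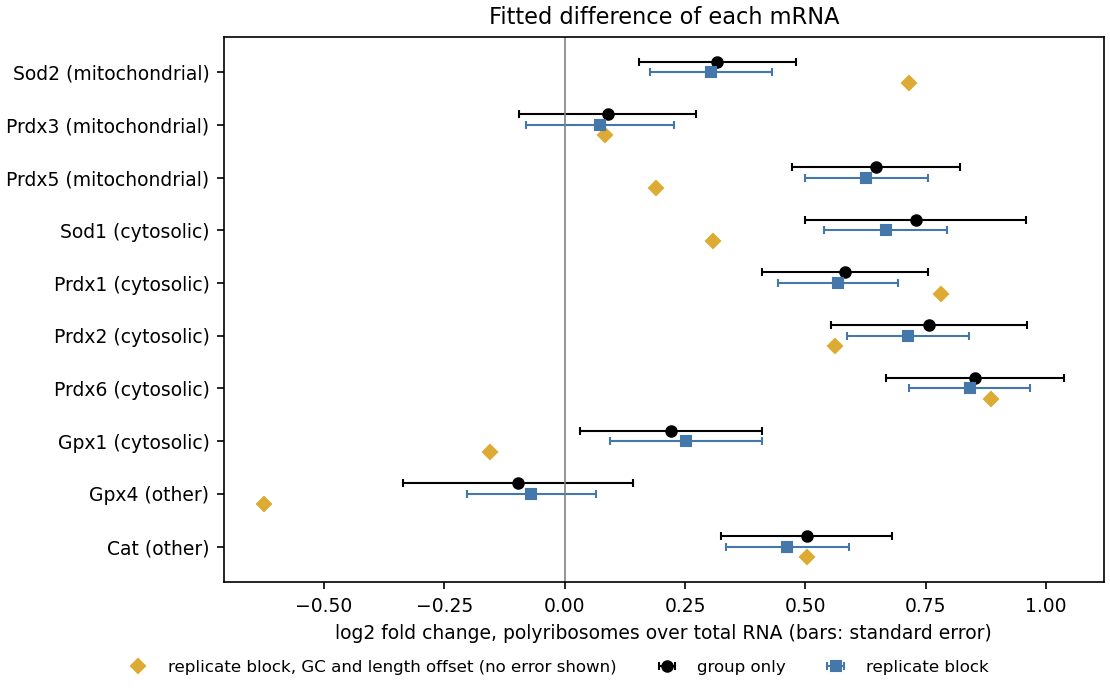
Log2 fold change of each gene, NMDA polyribosomes over unstim. Total (positive is higher on polyribosomes), by group alone (black), with the preparation as a block (blue), and with the block plus GC and length correction (yellow); bars are standard errors, not drawn for the last. The first 2 fits lay close together for each gene, while the correction raised Sod2 from 0.30 to 0.72 and lowered Gpx4 from -0.07 to -0.63.

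Transcript composition moved with the contrast. Over all genes tested the log2 fold change correlated with GC content (r = 0.54 across genes) and with transcript length (r = -0.34 across genes), and over the 10 members the same coefficients were -0.22 and 0.08. Genes are not independent replicates, and these values are descriptions. When the blocked fit also took GC content and length into account, 5 members were higher (Sod2, Prdx1, Prdx2, Prdx6 and Cat) and 1 lower (Gpx4), where 9.13% of all genes were called higher and 7.03% lower. Sod2, with a long transcript of low GC content (42.2%), then had a log2 fold change of 0.72 (adjusted p = 3.64e-08 with edgeR). Gpx4, of 60.2% GC, had -0.63 (adjusted p = 3.35e-06), and Prdx5, of 58.3% GC, no longer passed, at 0.19 (adjusted p = 0.246). Sod1 stood at 0.31 (adjusted p = 0.0382). The offset without the block called 0 members higher and 0 lower, with Gpx4 at -0.68 (adjusted p = 0.0859 with edgeR). The uncorrected log2 ratios of Gpx4 ran from -0.63 to 0.72 over the preparations, so its call depends on the block. Prdx6, Prdx2, Prdx1 and Cat passed in both blocked fits, with log2 fold changes of 0.89, 0.56, 0.78 and 0.50 under the offset. Whether composition acts through the library preparation or through the fraction was not tested.

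The study's genes of interest included mitochondrial proteins, so the compartments were compared within each preparation. The mean log2 ratio of the 3 mitochondrial members was 0.27, 0.25 and 0.57 in preparations 1, 2 and 3. For the 5 cytosolic members it was 0.59, 0.56 and 0.67. The cytosolic mean was the higher one in 3 of 3 preparations, by a mitochondrial minus cytosolic difference of -0.24 ± 0.12 (SD, n = 3) on the log2 scale. With 3 pairs an exact two-sided sign-flip test cannot go below 0.25, so no p is given. The members of each group also spread widely: log2 fold changes ran from 0.09 (Prdx3) to 0.65 (Prdx5) among the mitochondrial genes and from 0.22 (Gpx1) to 0.85 (Prdx6) among the cytosolic ones. The difference was -0.38 without Prdx5, -0.19 without Prdx6, and -0.43 with Gpx1 and Gpx4 counted as mitochondrial. Under the blocked fit with the GC and length offset it was -0.15. The median log2 fold change was 0.32 for the mitochondrial and 0.73 for the cytosolic members, 0.54 for all 10, and 0.00 for all genes tested. The polyribosome library was the higher in 3 of 3 pairs for 8 of the 10 members, all but Prdx3 and Gpx4, against 30.2% of all genes.

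**Figure D3:**
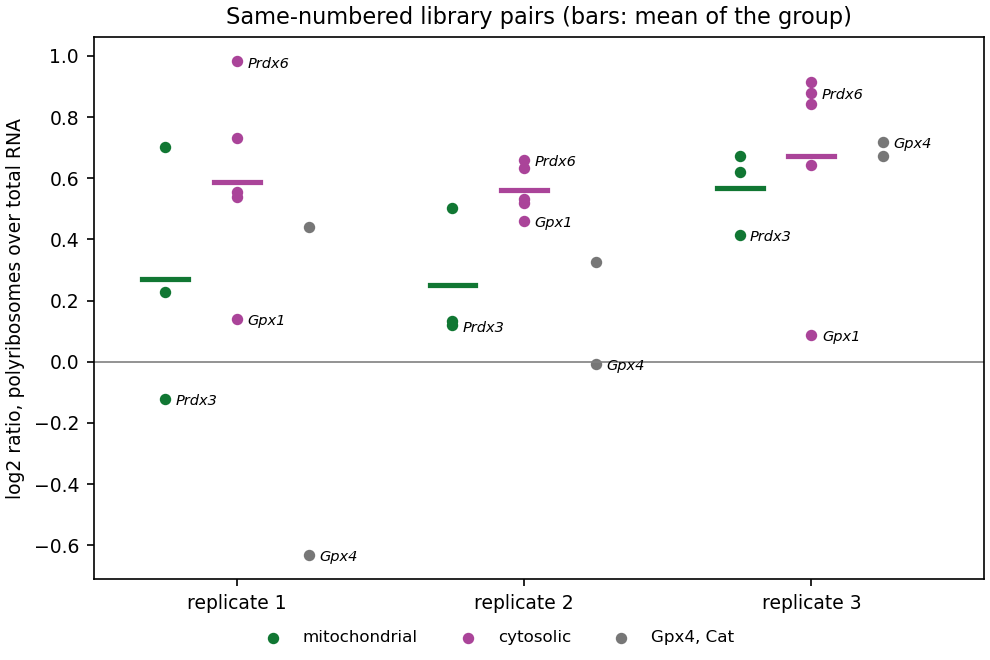
Log2 ratio of NMDA polyribosomes over unstim. Total in each of the 3 preparations, numbered as replicates; points are genes (green mitochondrial, purple cytosolic, gray Gpx4 and Cat) and bars the means of the mitochondrial and cytosolic members. Gpx4 ran from -0.63 to 0.72, and the cytosolic mean was above the mitochondrial mean in each preparation.

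To compare levels between genes, CPM were divided by the length of the longest transcript in kilobases. On NMDA polyribosomes the order was Prdx6 (209 ± 36.1 CPM per kb, SD, n = 3), Sod1 (199 ± 63.1), Gpx4 (118 ± 13.6), Prdx2 (105 ± 27.7), Prdx1 (80.6 ± 11.4), Prdx5 (80.4 ± 11.3), Cat (36.6 ± 6.85), Gpx1 (27.0 ± 3.57), Sod2 (26.3 ± 2.09) and Prdx3 (20.6 ± 1.13). Neighbors in this order overlapped except Sod1 and Gpx4, Prdx5 and Cat, Cat and Gpx1, and Sod2 and Prdx3. In the Total libraries Gpx4 (123 ± 50.2), Sod1 (122 ± 26.2) and Prdx6 (116 ± 15.9) led without separating, and Prdx3 was again the lowest (18.8). Per kilobase, 2 of the 3 mitochondrial members, Sod2 and Prdx3, were thus below the cytosolic Sod1, Prdx1, Prdx2 and Prdx6 in both groups. The other cytosolic member, Gpx1, overlapped Sod2 in both, at 27.0 against 26.3 CPM per kb on polyribosomes and 22.9 against 21.0 in the Total libraries. The rank of Sod2 depends on its gene model. Clipping the 5861-base transcript to the gene's deposited interval (3824 bases) gave 40.4 CPM per kb on polyribosomes and rank 7, above Gpx1. Read sharing limits other members too. Prdx5 overlaps Trmt112 on the opposite strand over 28.3% of its exons, and Prdx2 overlaps Junb and Rnaseh2a over 9.33% and 9.55%. Whether strand was used in counting was not given in the sources used here. The highest CPM of these neighbors in any library was 20.6 (Junb), below every value of Prdx5 and Prdx2. That level does not bound the reads shared or lost in the overlaps, whose number was not tested.

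The 60 tested companion genes included enzymes that recharge the peroxidases or supply their reducing power. They also held other peroxidases and dismutases, glutathione transferases, and genes of the Nrf2 pathway, methionine repair and metal handling. By group alone 1 was called higher and 0 lower. With the block, 14 rose and 3 fell, which is 23.3% and 5% of the 60, against 11.8% and 13.2% of all genes. Their median log2 fold change was 0.31. With the GC and length offset added to the block, 9 of the 14 were still called higher, 5 were lost (G6pdx, Gsta4, Gstk1, Gstm5 and Nxn) and 5 others were gained, while all 3 that fell were still called.

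Idh2, the mitochondrial isocitrate dehydrogenase that makes NADPH in the matrix, was the gene called by group alone. It had 65.8, 57.9 and 68.1 CPM in the Total libraries and 109.4, 101.8 and 136.1 on polyribosomes, with no overlap. Its log2 fold change was 0.86 (adjusted p = 0.0078 with edgeR, 8.75e-08 with the block), and it missed the threshold in each fit that left out 1 library (log2 fold change 0.74 to 0.95). Of the 11 genes of NADPH supply, 4 rose with the block (Idh2, its cytosolic counterpart Idh1, and G6pdx and Pgd of the pentose phosphate pathway). Me3, a mitochondrial malic enzyme, fell (log2 fold change -0.64 with the block, adjusted p = 0.000253 with edgeR).

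In the glutathione system, 6 of 17 genes rose with the block and 1 fell. Gstp1, a glutathione transferase, had 22.9 ± 9.28 CPM in the Total libraries and 47.6 ± 17.9 on polyribosomes (SD, n = 3 each), a log2 fold change of 1.16 (adjusted p = 0.0237 with edgeR, 2.17e-08 with the block). The 17 include other transferases that rose, such as Gstm1. The gene that fell, Glrx2, encodes the mitochondrial glutaredoxin, with a log2 fold change of -0.90 (adjusted p = 0.0121 with edgeR, 1.87e-05 with the block). Glrx2, Gstm1, Me3 and the genes Ccs and Sepw1 below were singled out after their values were seen.

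In the thioredoxin system, 1 of 9 genes rose with the block, where 11.8% of all genes did. This was Nxn (nucleoredoxin, log2 fold change 0.53 by group alone, adjusted p = 0.0724 with edgeR, 0.00711 with the block). With the offset added it was at 0.33 (adjusted p = 0.143). Among 5 other peroxidases and dismutases, 1 rose with the block, the extracellular dismutase Sod3 (log2 fold change 0.77, adjusted p = 0.0865 with edgeR, 0.000172 with the block). In a list of targets and regulators of Nrf2, the transcription factor that drives many antioxidant genes, none of 9 tested genes passed in either fit. Genes counted in the other lists were left out of these 9, so they do not stand for all Nrf2 targets. Sqstm1 had a log2 fold change of 0.31 (adjusted p = 0.375 with edgeR).

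Of 9 genes of methionine repair and metal handling, 2 rose with the block and 1, the methionine sulfoxide reductase Msra, fell. Of all genes, 11.8% rose and 13.2% fell. Park7 (DJ-1) had a log2 fold change of 0.87 (adjusted p = 0.0206 with edgeR, 1.63e-06 with the block). Ccs, the chaperone that loads copper into Sod1, was at 7.20, 7.70 and 5.75 CPM in the Total libraries and 12.3, 17.3 and 20.0 on polyribosomes. Its groups did not overlap, and its log2 fold change was 1.19 (adjusted p = 0.0101 with edgeR, 2.59e-05 with the block).

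Gpx1 and Gpx4 are selenoproteins, and 20 selenoprotein genes were tested, both of them included. With the block 3 rose and 1 fell, against 11.8% and 13.2% of all genes, and the median log2 fold change of the 20 was 0.17. Selm had a log2 fold change of 0.79 (adjusted p = 0.0207 with edgeR, 3.36e-05 with the block) and Sepw1 one of -0.72 (adjusted p = 0.0347 with edgeR, 2.53e-06 with the block). With the offset added, Selm was at 0.079 (adjusted p = 0.736) and Vimp also lost its call, so 1 of the 3 that rose and the 1 that fell were still called.

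**Figure D4:**
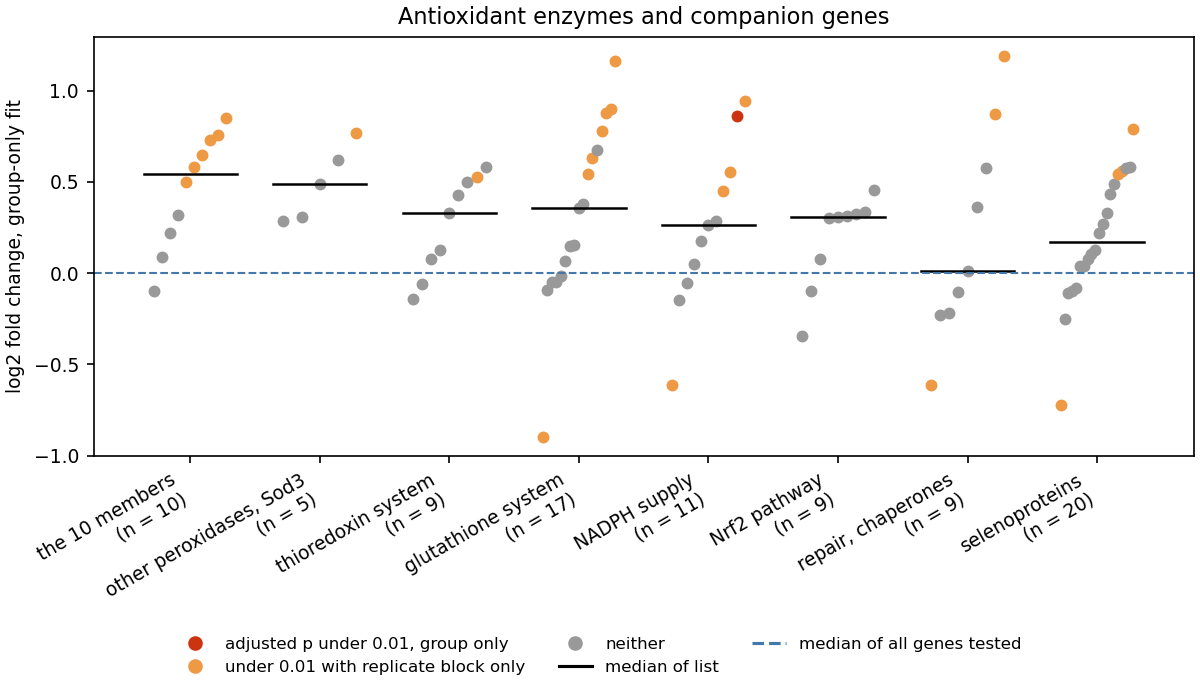
Log2 fold change (NMDA polyribosomes over unstim. Total, by group alone) of each tested gene, by list; points are genes, red where called by group alone and orange where called with the block only, bars are list medians, and the dashed line is the median of all genes tested. Most companion lists had medians between 0.17 and 0.49, and the list of methionine repair and metal handling had 0.01, against 0.00 for all genes tested.

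The defining markers of several cell types moved with the contrast too. Summed astrocyte markers ran from 42658 to 45110 CPM on NMDA polyribosomes and from 33703 to 38210 in the Total libraries, without overlap, and 7 of 11 were called higher with the block. Most of this sum was Slc1a2 (30389 to 33562 and 26317 to 29862 CPM), which was not called (log2 fold change 0.20, adjusted p = 0.507 with edgeR, 0.27 with the block). The other 10 astrocyte markers summed to 10507 to 14721 and 7386 to 8348 CPM, also without overlap. Cldn11 of oligodendrocytes was the 1 marker called by group alone (log2 fold change 0.83, adjusted p = 0.00751 with edgeR). Microglial markers were at 956 to 1111 and 628 to 863 CPM (4 of 10 called). Oligodendrocyte markers were at 11348 to 15473 and 8196 to 11620 CPM, which overlapped (4 of 10 called), and synaptic neuron markers at 12908 to 16340 and 12001 to 13927 CPM, which also overlapped (3 of 10 called). Endothelial markers overlapped (388 to 685 and 397 to 417 CPM, 1 of 9 called), as did red blood cell markers (263 to 1187 and 229 to 921 CPM, 0 of 5 called). None of these lists had a gene called lower, while the block called 11.8% of all genes higher and 13.2% lower. The median log2 fold change was 0.42 for astrocyte and 0.04 for synaptic neuron markers. The part of these cell types in the rise of Prdx6 and the other members was not tested. In such bulk samples the amount of material from a cell type and the RNA it contributed cannot be told apart.

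Over the 6 libraries, the profile of the mitochondrial members (mean standardized log2 CPM) was most like that of Skp1a, Clcn2 and Ndufc2 (Pearson r = 0.998, 0.997 and 0.995) among 6547 genes compared. That of the cytosolic members was most like Uqcrb, Fabp5 and Abcc10 (r = 0.995, 0.993 and 0.993). As many as 365 and 586 genes had r above 0.9 with these profiles, and the points share the group difference and the preparations. Among the members, Prdx2 and Cat had the same profile shape (r = 0.99), as did Prdx2 and Prdx5 (r = 0.99), while Gpx4 and Prdx5 had r = -0.27.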

How the data were processed

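The 6 strand-specific paired-end RNA-seq libraries, made after ribosomal RNA depletion, form 2 groups of 3. The deposited gene table holds raw read counts per protein-coding gene, which the authors made with STAR 2.5.2b on GRCm38 with Gencode vM6 and HTSeq. Its columns of the authors' own DESeq2 comparison (mean signal, log2 fold change, error, statistic, p-values) were not used. All 6 count columns were matched to libraries by the column name in each library's label, and groups taken from the titles.

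Counts were tested over the whole table in R 4.3.3 with edgeR 4.0.16 (TMM, filterByExpr, quasi-likelihood test, group as the sole term), called at an adjusted p under 0.01, the study's threshold. The method was checked on simulated counts. By the methods each preparation was divided into 4 aliquots and the labels share numbers between groups, and within pairs the departures of both libraries from their group means had r = 0.37, 0.26 and 0.38, so the preparation was also used as a block. Pair ratios used a prior count of 2. GC content and length came from Gencode vM21 (98.953% of genes matched), with a loess offset of span 0.5. Alternatives were library totals in place of TMM, DESeq2 1.42.0, no filter, the offsets, leaving out each library, and an adjusted p of 0.05. A clipped Sod2 length and leaving out Prdx6 were added after the data were seen. By group alone, p-values measure the spread between the 3 libraries of a group. With the block they rest largely on a spread shared across genes, and do not follow each gene's own spread over the 3 preparations. The blocked SE was 0.134 for Gpx4 and 0.125 for Prdx1, while the SDs of their pair log2 ratios were 0.68 and 0.06. Counting error is smallest in the deeper polyribosome libraries.

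Members and lists were chosen with earlier results of these data known. Named were all 10 members. From each companion list came the genes called by group alone or, with none, the largest absolute log2 fold change among genes with a mean CPM of at least 20. The 3 genes most like each compartment's profile were named by the same minimum.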

Additional observations from a re-analysis of the deposited data

How the results depend on the processing

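The number of members called higher was 0 by group alone, 2 with DESeq2, 3 without the filter, 5 at an adjusted p of 0.05, 6 with the replicate block, 5 with the block and the GC and length offset, and 5 with the clipped length. Leaving out 1 library gave 0 to 1, the 1 being Prdx6 without Total replicate 3. The number called lower was 1 with the block and either offset (Gpx4) and otherwise 0. Over all genes, 87 were higher by group alone, 42 with total counts, 476 without the filter, 316 with DESeq2, 31 with the offset alone, 1441 with the replicate block, 1117 with block and offset, 1096 with the clipped length, 799 at 0.05, and 0 to 61 with 1 library left out. For lower genes these were 289 by group alone, 566 without the filter, 80 with the offset, 1622 with the replicate block, 860 with block and offset, 836 with the clipped length, 1085 at 0.05, and 22 to 208 with 1 library left out, the fewest in both directions without Total replicate 2.

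The sign changed in 3 members that were not called in the group-only fit. Prdx3 was at -0.023 with total counts. Gpx1 was at -0.21 with the offset and -0.16 with block and offset, for either length. Gpx4 was at 0.17 without Total replicate 1 and ran from -0.35 to 0.17 with 1 library left out. The mitochondrial minus cytosolic difference was -0.43 with Gpx1 and Gpx4 as mitochondrial, -0.38 without Prdx5 and -0.37 to -0.21 with 1 library left out. It was smaller, at -0.13, with the offset alone, -0.15 with block and offset, -0.17 with the clipped length and -0.19 without Prdx6. It kept its sign under each alternative run. The cause of these shifts was not tested. Total replicate 3 was the shallowest library, with 25 counts for Prdx3 and 24 for Gpx1.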
